A study of Mus musculus with 3 samples.

Results

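Hox genes encode homeodomain transcription factors that give cells a position along the body axis and along the limb. The genes described here are all genes of the deposited tables whose symbol is Hox followed by a cluster letter a to d and a number, which gave 39 genes of 33696 features in each of 2 tendon libraries and the same 39 of 35980 features in a library of dorsal root ganglia (DRG). They were chosen by name alone, without reference to any measured level. The Hoxa cluster on chromosome 6 held 11 of them, Hoxb on chromosome 11 held 10, Hoxc on chromosome 15 held 9 and Hoxd on chromosome 2 held 9. Their levels were read across tendon and ganglion cell classes, with resident cells kept apart from blood-derived cells.

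The study used C57BL/6 mice and droplet single-cell RNA sequencing (10x Genomics), in which each captured transcript is counted once as a unique molecular identifier (UMI) under the barcode of its droplet. For the neurectomy library, Achilles tendons were taken from 5 mice. Their sural nerve, which carries sensation from the lateral foot and ankle, had been severed, and 1 week later the ankle was immobilized in dorsiflexion for 4 weeks. The sham library came from the Achilles tendons of 5 mice whose nerve was exposed but left intact, followed by the same 4 weeks of immobilization, so both groups carried the immobilization and no tendon without it was compared. The DRG library held 18 ganglia of 6 mice from lumbar level 4 to sacral level 1, taken 4 weeks after an AAV-PHP.S vector carrying tdTomato was injected (5 µL) into the left Achilles sheath at 4 weeks of age. The labels disagree on whether the ganglia of the uninjected side were included and 1 label calls the vector a lentivirus. The age of the tendon mice and the way animals were pooled are not stated in the sources used here. Each group was 1 library, so there is no replicate check and no test between groups: intervals below are exact 95% intervals and cover counting error only.

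Hox genes lie in clusters in the order in which they are used along the body. Genes at the 3′ end of a cluster (low paralog numbers) start early and mark anterior levels, and genes at the 5′ end (paralog groups 9 to 13) mark lumbosacral levels of the trunk and the segments of the limb. In the limb the posterior genes of Hoxa and Hoxd pattern the upper, middle and distal segments, and Hoxc genes of groups 9 to 11 are known from the hind limb. Adult connective tissue cells keep much of the pattern of the site they came from, whereas blood cells arise from marrow and their mature forms carry low Hox levels. Hox proteins bind DNA together with cofactors of the TALE class, the Pbx, Meis and Pknox proteins.

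The libraries held 25067 (neurectomy), 32951 (sham) and 23566 (DRG) barcodes with 79750679, 133570956 and 239515477 UMIs, and medians of 1212, 1065 and 3422 UMIs per barcode. Barcodes under 500 genes or over 15% mitochondrial UMIs were dropped, which left 21992, 25306 and 22384 barcodes. Gates of marker genes put 8058, 10143 and 15123 of these into resident classes and 932, 1111 and 954 into blood-derived classes. Barcodes that passed the gates of several lineages (672, 772 and 444) were left out as mixed, and 11752, 12547 and 5764 passed no gate. The classes are named after their gates and hold doublets that no gate caught. The defining markers followed the gates: Scx stood at 2884 and 3742 CPM (counts per 1000000 UMIs of a class) in tenocytes, Pecam1 at 1136 and 1212 in tendon blood endothelial cells, C1qa at 1877 and 1876 in tendon macrophages and Snap25 at 834 in DRG neurons. The tendon libraries had 1001 barcode sequences in common (3.99% of those of the first and 3.04% of those of the second), and 153 and 189 recurred among the ganglia. In the same order of libraries, Y-linked genes gave 39, 6366 and 49538 UMIs and Xist 55528, 61571 and 23. Y-linked RNA was thus nearly absent from the neurectomy library and Xist from the DRG library, whereas the sham library held both. Sex therefore differed between the libraries along with tissue and operation. The part of sex in the results was not tested beyond the alternative given below.

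Of the 39 Hox genes, 36 (neurectomy), 37 (sham) and 38 (DRG) had at least 1 UMI. Hoxb1, Hoxb13 and Hoxd12 were at 0 in the neurectomy library, Hoxb1 and Hoxb13 in the sham library and Hoxb13 in the DRG library. Hox genes held 22634, 38396 and 123328 UMIs, which is 284, 287 and 515 CPM of the libraries.

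The promoters shown here belong to members that separate the classes below. In the tendon, Hoxa10 and Hoxa11 were higher in tenocytes and Hoxb4 and Hoxb8 in blood endothelial cells. Hoxd1 was higher in DRG neurons than in the other resident cells. In the ganglia Hoxa10 had its highest value in neurons and Hoxa11 in mural cells. Hoxb4 stood there at 114 CPM in blood endothelial cells and 98.6 CPM in satellite glia. Each promoter is the 250 bases before the annotated start on the gene's strand, 5′ to 3′, from RefSeq (GRCm38.p6). Every CG dinucleotide is in capitals. Hoxa10 has 2 annotated starts.
Hoxa10 (chr6:52234940-52235189, minus strand): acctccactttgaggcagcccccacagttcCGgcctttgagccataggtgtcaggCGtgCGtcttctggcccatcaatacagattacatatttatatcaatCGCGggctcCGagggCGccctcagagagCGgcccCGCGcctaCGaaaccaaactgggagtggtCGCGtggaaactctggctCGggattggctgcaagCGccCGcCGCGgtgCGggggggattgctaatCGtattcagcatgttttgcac
Hoxa10, upstream start (chr6:52240855-52241104, minus strand): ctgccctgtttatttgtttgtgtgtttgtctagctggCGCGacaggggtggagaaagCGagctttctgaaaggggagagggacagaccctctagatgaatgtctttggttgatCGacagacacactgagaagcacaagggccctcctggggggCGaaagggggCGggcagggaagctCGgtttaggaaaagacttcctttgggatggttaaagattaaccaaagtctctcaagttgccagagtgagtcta
Hoxa11 (chr6:52245811-52246060, minus strand): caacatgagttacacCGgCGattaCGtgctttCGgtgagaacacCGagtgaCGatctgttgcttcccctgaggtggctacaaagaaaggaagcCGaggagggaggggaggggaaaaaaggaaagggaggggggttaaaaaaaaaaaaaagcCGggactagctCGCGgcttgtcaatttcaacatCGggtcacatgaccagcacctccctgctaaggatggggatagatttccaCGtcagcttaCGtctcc
Hoxb4 (chr11:96318017-96318266, plus strand): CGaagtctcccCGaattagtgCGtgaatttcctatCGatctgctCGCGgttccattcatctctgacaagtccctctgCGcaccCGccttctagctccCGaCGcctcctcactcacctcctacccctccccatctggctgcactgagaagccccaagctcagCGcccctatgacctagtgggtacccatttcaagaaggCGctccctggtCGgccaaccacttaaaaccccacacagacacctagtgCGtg
Hoxb8 (chr11:96281655-96281904, plus strand): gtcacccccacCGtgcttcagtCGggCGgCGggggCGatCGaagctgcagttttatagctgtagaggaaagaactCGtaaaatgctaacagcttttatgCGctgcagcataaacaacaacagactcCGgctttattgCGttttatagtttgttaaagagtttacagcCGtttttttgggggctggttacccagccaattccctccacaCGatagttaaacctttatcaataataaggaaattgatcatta
Hoxd1 (chr2:74762730-74762979, plus strand): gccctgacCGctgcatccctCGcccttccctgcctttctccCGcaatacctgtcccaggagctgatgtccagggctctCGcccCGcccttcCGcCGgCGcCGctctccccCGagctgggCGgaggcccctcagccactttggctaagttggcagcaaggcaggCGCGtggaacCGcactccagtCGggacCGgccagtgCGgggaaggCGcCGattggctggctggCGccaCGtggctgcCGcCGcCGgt
The RefSeq table held 24 such starts for 22 of the 39 genes. They had a median of 12.5 CG dinucleotides and a median GC content of 58.6%, beside 6 and 52.4% over all 32851 starts of the table, and 14 of the 24 had at least 12 CG dinucleotides, beside 33.5% of all starts. The PBX-HOX motif TGATTNAT, searched on both strands, was found in 2 of 24 (8.33%), beside 2.83% of all starts. The MEIS motif TGACAG was found in 2 of 24 (8.33%), beside 15.9% of all starts, and TATAAA in 4 of 24 (16.7%), beside 12.4%. In the windows printed above, TATAAA was found on 1 or the other strand of Hoxb8 and of the first Hoxa10 start, and neither of the other motifs was found in any of them. A match describes letters and not a bound site.

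Every resident class of the tendon carried Hox transcripts at summed levels several times those of macrophages, the main blood-derived class. Over the 39 genes together, tenocytes stood at 309 CPM (95% interval 301 to 316) in the neurectomy and 319 CPM (314 to 324) in the sham library. Pi16 fibroblasts stood at 301 and 242 CPM, other fibroblasts at 358 and 341 and synovial lining cells at 264 and 248. Blood endothelial cells, at 431 (409 to 453) and 414 (394 to 435), had the highest value of the resident classes in both libraries. Lymphatic endothelial cells stood at 389.5 (370.2 to 409.6) and 408 (392 to 424) and mural cells at 371 (323 to 424) and 357 (323 to 393). The blood endothelial interval overlapped the lymphatic interval in both libraries, and those of mural and muscle satellite cells in the neurectomy library. Schwann cells stood at 194 and 244, over 151 and 89 barcodes, the lowest value of the neurectomy library with an interval that overlapped that of synovial lining cells. In the sham library the intervals of Pi16 fibroblasts, Schwann cells and synovial lining cells, the lowest classes, overlapped. Muscle satellite cells, over 22 and 13 barcodes, stood at 314 and 302. Macrophages stood at 42.9 (36.7 to 49.9) and 31.2 (27.4 to 35.3).

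**Figure D1:**
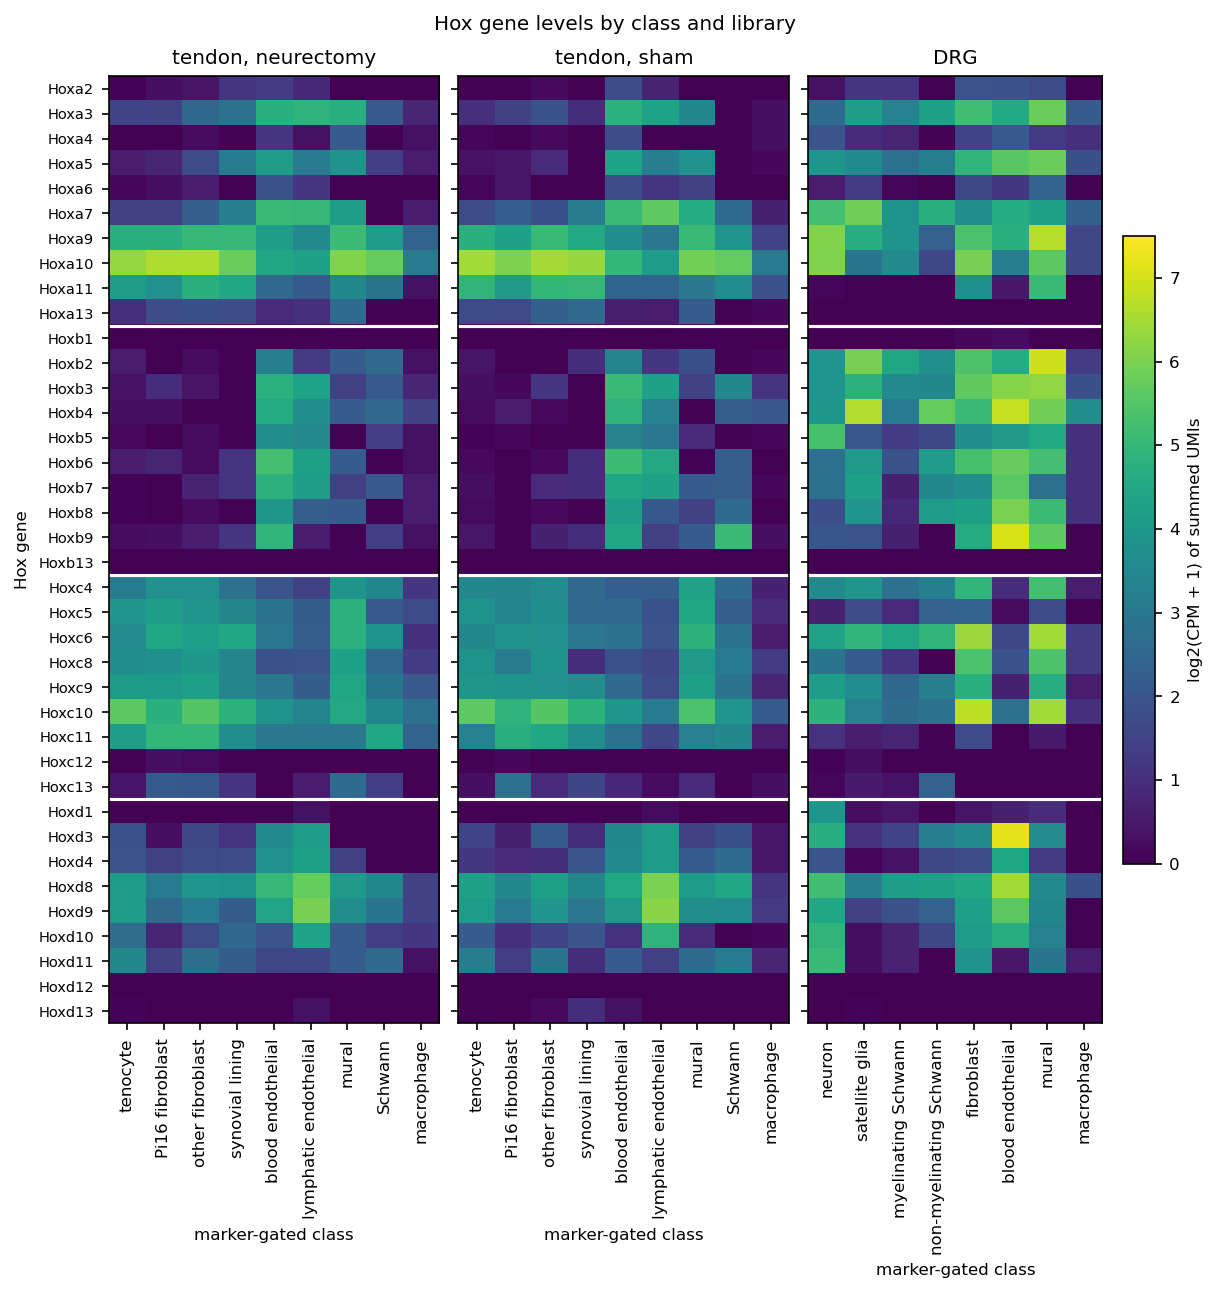
Level of 38 of the 39 Hox genes (rows, in cluster order) in each gated class of the 3 libraries (columns), as log2(CPM + 1) of UMIs summed over the class. White lines separate the clusters, and the tendon fibroblast columns are low (dark) in the Hoxb block where the endothelial columns are high (green).

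The posterior Hoxa genes, which pattern the limb along its length, were carried by all tendon fibroblast classes. Values here and below are CPM in the order neurectomy and sham. Hoxa9 stood at 25.2 and 26.0 in tenocytes, 25.2 and 18.6 in Pi16 fibroblasts, 31.0 and 32.9 in other fibroblasts, 31.5 and 22.7 in synovial lining cells, 17.5 and 12.1 in blood endothelial cells, 11.1 and 7.03 in lymphatic endothelial cells, 34.0 and 31.9 in mural cells, 16.3 and 14.1 in Schwann cells, 5.92 and 11.8 in muscle satellite cells and 4.27 and 1.86 in macrophages. For Hoxa10 the values were 78.0 and 86.7 in tenocytes, 96.0 and 63.8 in Pi16 fibroblasts, 96.0 and 88.4 in other fibroblasts, 54.5 and 79.9 in synovial lining cells, 20.7 and 30.2 in blood endothelial cells, 18.5 and 16.7 in lymphatic endothelial cells, 66.4 and 59.6 in mural cells, 52.1 and 52.5 in Schwann cells, 35.5 and 51.0 in muscle satellite cells and 7.28 and 7.58 in macrophages. Hoxa11, the gene of the middle limb segment, stood at 17.5 and 29.3 in tenocytes, 13.0 and 15.4 in Pi16 fibroblasts, 26.3 and 30.5 in other fibroblasts, 21.8 and 30.6 in synovial lining cells, 4.95 and 4.31 in blood endothelial cells, 3.34 and 4.35 in lymphatic endothelial cells, 10.2 and 6.91 in mural cells, 6.51 and 11.5 in Schwann cells, 0 and 7.84 in muscle satellite cells and 0.251 and 2.61 in macrophages. All 3 genes were lower in blood endothelial cells than in tenocytes in both libraries, with Hoxa9 in the neurectomy library under 2-fold. Hoxa13, which marks the distal limb, was low in all of them: it stood at 1.05 and 2.25 in tenocytes, 2.40 and 2.12 in Pi16 fibroblasts, 2.53 and 3.96 in other fibroblasts, 2.42 and 4.93 in synovial lining cells, 0.873 and 0.539 in blood endothelial cells, 1.03 and 0.502 in lymphatic endothelial cells, 5.11 and 3.45 in mural cells, 0 and 0 in Schwann cells, 0 and 0 in muscle satellite cells and 0 and 0.124 in macrophages, at most 5.11 in any of these classes.

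Among Hoxc genes, which are used along the trunk and in the hind limb, Hoxc10 stood at 48.2 and 49.1 in tenocytes, 26.2 and 28.2 in Pi16 fibroblasts, 43.8 and 45.3 in other fibroblasts, 27.9 and 27.6 in synovial lining cells, 13.1 and 14.0 in blood endothelial cells, 9.51 and 7.37 in lymphatic endothelial cells, 22.1 and 40.6 in mural cells, 9.77 and 14.1 in Schwann cells, 53.2 and 66.7 in muscle satellite cells and 5.77 and 3.48 in macrophages. Hoxc11 stood at 17.4 and 8.88 in tenocytes, 30.5 and 25.0 in Pi16 fibroblasts, 30.5 and 21.2 in other fibroblasts, 12.1 and 11.8 in synovial lining cells, 6.98 and 5.66 in blood endothelial cells, 6.94 and 2.01 in lymphatic endothelial cells, 6.81 and 8.63 in mural cells, 21.2 and 10.2 in Schwann cells, 41.4 and 11.8 in muscle satellite cells and 4.27 and 0.497 in macrophages. Hoxc9 stood at 16.0 and 14.6 in tenocytes, 16.1 and 13.6 in Pi16 fibroblasts, 17.7 and 13.0 in other fibroblasts, 9.69 and 11.8 in synovial lining cells, 6.98 and 5.12 in blood endothelial cells, 3.60 and 2.34 in lymphatic endothelial cells, 20.4 and 18.1 in mural cells, 6.51 and 6.40 in Schwann cells, 47.3 and 27.5 in muscle satellite cells and 3.26 and 0.745 in macrophages. All 3 had higher values in tenocytes and other fibroblasts than in blood or lymphatic endothelium. Hoxc9 and Hoxc10 had their highest values in the few muscle satellite cells in both libraries, and Hoxc11 did so in the neurectomy library. Hoxc5, Hoxc6 and Hoxc8 are the more anterior, trunk-level genes of the cluster. Hoxc5 stood at 13.9 and 13.1 in tenocytes, 17.5 and 9.49 in Pi16 fibroblasts, 14.1 and 12.1 in other fibroblasts, 9.69 and 4.93 in synovial lining cells, 6.40 and 4.85 in blood endothelial cells, 3.60 and 2.68 in lymphatic endothelial cells, 27.2 and 21.6 in mural cells, 3.26 and 3.84 in Schwann cells, 53.2 and 15.7 in muscle satellite cells and 2.26 and 0.870 in macrophages. Hoxc6 stood at 11.2 and 9.86 in tenocytes, 21.1 and 13.6 in Pi16 fibroblasts, 17.7 and 13.0 in other fibroblasts, 21.8 and 6.91 in synovial lining cells, 6.69 and 6.20 in blood endothelial cells, 3.86 and 2.85 in lymphatic endothelial cells, 27.2 and 27.6 in mural cells, 13.0 and 6.40 in Schwann cells, 17.7 and 23.5 in muscle satellite cells and 1.00 and 0.497 in macrophages. Hoxc8 stood at 11.7 and 13.2 in tenocytes, 12.7 and 7.99 in Pi16 fibroblasts, 14.9 and 13.6 in other fibroblasts, 9.69 and 0.987 in synovial lining cells, 2.62 and 2.70 in blood endothelial cells, 2.83 and 2.01 in lymphatic endothelial cells, 18.7 and 15.5 in mural cells, 4.89 and 7.68 in Schwann cells, 0 and 23.5 in muscle satellite cells and 1.51 and 1.49 in macrophages. Mural cells, the muscle and pericyte layer of vessels, were thus above both endothelial classes for these trunk-level genes. Hoxc5 and Hoxc10 share exonic bases of the same strand in GENCODE, so their counts may not be fully separate.

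Hoxd genes divided the tendon classes differently. Hoxd8 stood at 16.3 and 18.4 in tenocytes, 7.44 and 10.1 in Pi16 fibroblasts, 13.9 and 18.4 in other fibroblasts, 13.3 and 9.87 in synovial lining cells, 30.8 and 22.6 in blood endothelial cells, 51.7 and 62.3 in lymphatic endothelial cells, 15.3 and 16.4 in mural cells, 9.77 and 21.8 in Schwann cells, 0 and 0 in muscle satellite cells and 1.76 and 1.24 in macrophages. Hoxd9 stood at 16.4 and 16.8 in tenocytes, 5.04 and 7.49 in Pi16 fibroblasts, 7.28 and 14.1 in other fibroblasts, 3.64 and 6.91 in synovial lining cells, 19.8 and 15.6 in blood endothelial cells, 61.7 and 70.7 in lymphatic endothelial cells, 11.9 and 12.1 in mural cells, 6.51 and 11.5 in Schwann cells, 5.92 and 0 in muscle satellite cells and 1.76 and 1.37 in macrophages. Hoxd10 stood at 19.0 and 28.6 CPM in lymphatic endothelial cells, 5.39 and 3.49 in tenocytes and 2.91 and 1.08 in blood endothelial cells. Among classes of at least 100 barcodes, the lymphatic endothelium was highest for these 3 genes in both libraries. Its interval lay above that of the next class each time. Hoxd11 was at 10.4 and 7.83 CPM in tenocytes and 1.68 and 1.62 in Pi16 fibroblasts, with intervals apart in both libraries, so these fibroblast classes were not alike in Hoxd. Hoxd13 had at most 0.987 CPM in any tendon class.

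The share of a class's Hox UMIs in each part of the clusters does not scale with the depth of the class. Posterior genes (paralog groups 9 to 13) held 76.5% (75.4% to 77.5%) and 77.1% (76.4% to 77.7%) of the Hox UMIs of tenocytes in the neurectomy and sham libraries. The shares were 73.2% and 75.5% in Pi16 fibroblasts, 74.5% and 76.1% in other fibroblasts, 66.1% and 82.5% in synovial lining cells and 66.4% and 65.4% in Schwann cells. Mural cells, at 50.9% and 53.8%, lymphatic endothelial cells, at 35.4% and 35.1%, and blood endothelial cells, at 28.9% (26.6% to 31.3%) and 27.5% (25.3% to 29.8%), had lower posterior shares than tenocytes in both libraries. Central genes (groups 4 to 8) held 53.8% and 52.7% in blood endothelial cells, against 21.7% and 21.8% in tenocytes. By cluster, Hoxb held 0.634% and 0.523% in tenocytes, 4.59% and 3.87% in mural cells, 21.4% and 19.9% in lymphatic and 41.6% and 41.7% in blood endothelial cells. Hoxd held 43.7% and 48.1% in lymphatic endothelial cells, the highest share of that cluster among the tendon classes. Schwann cells differed between the libraries, with 10.1% (5.32% to 17.0%) and 24.1% (18.2% to 30.8%) in Hoxb, and Hoxb9 alone had 1 and 25 UMIs there, 1.63 and 32.0 CPM. Muscle satellite cells had no Hoxb UMI among 53 and 77 Hox UMIs (upper 95% limits 6.72% and 4.68%), and 73.6% and 71.4% of theirs were Hoxc.

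**Figure D2:**
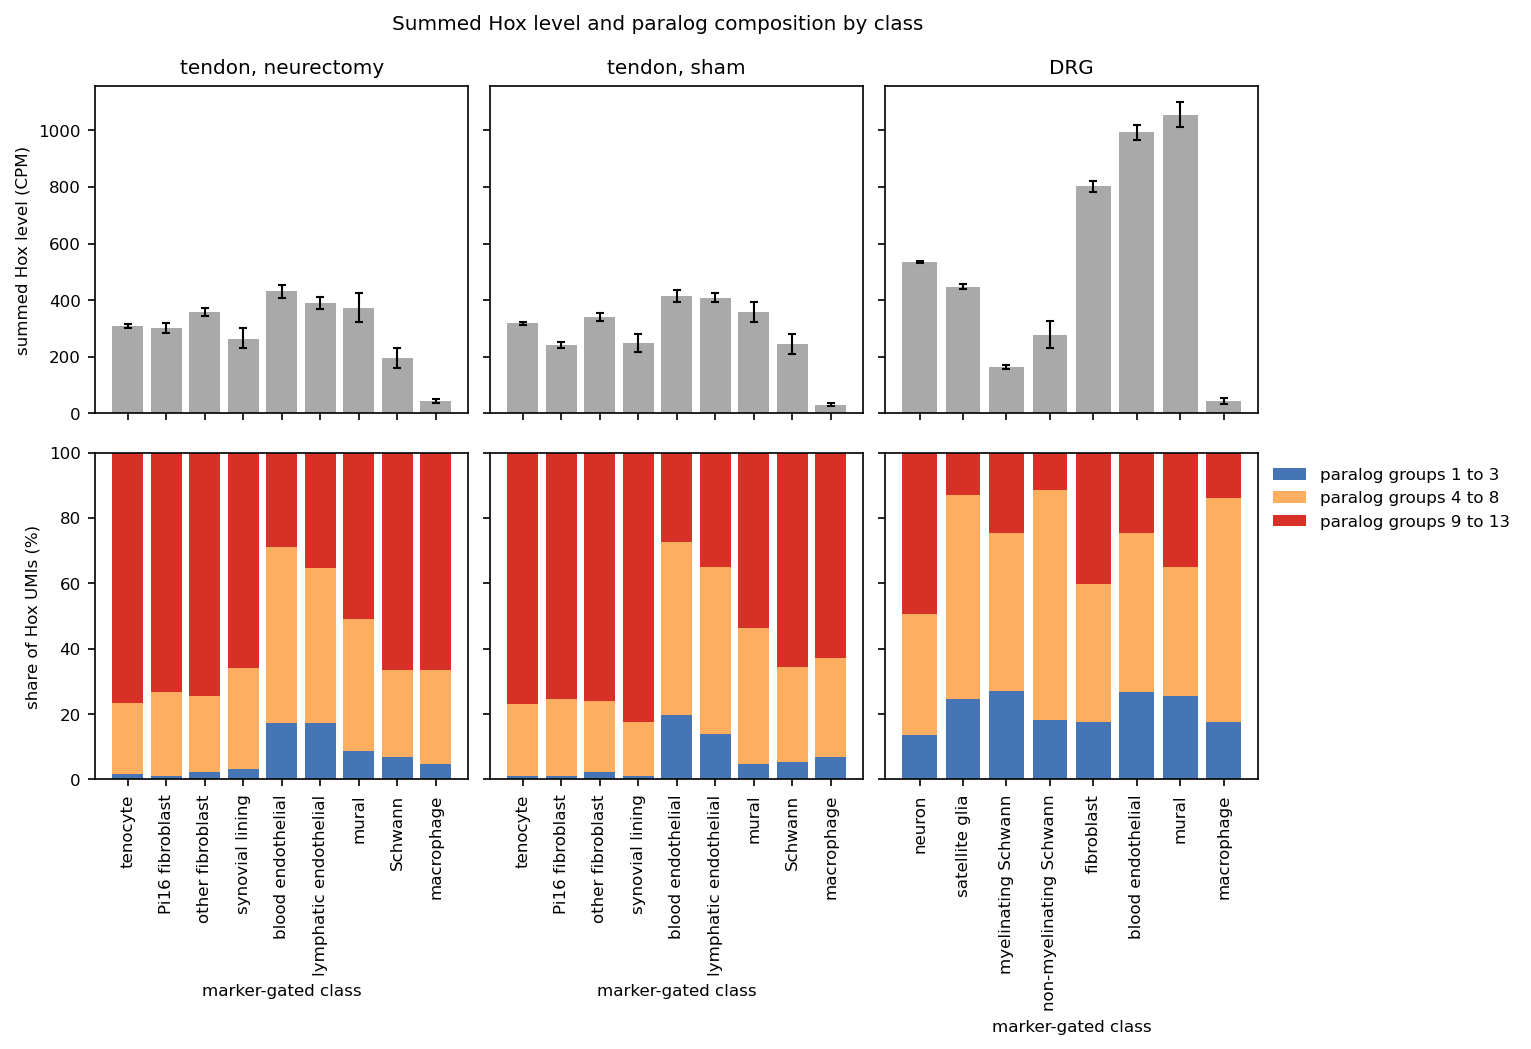
Top, summed level of the 39 Hox genes (CPM, bars from 0) in each class of the 3 libraries, with exact 95% Poisson intervals. Bottom, share of the Hox UMIs (percent) in paralog groups 1 to 3, 4 to 8 and 9 to 13: the posterior share falls from 77.1% in sham tenocytes to 27.5% in sham blood endothelial cells.

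Blood endothelial cells carried Hoxb genes and central Hoxa genes that tenocytes nearly lacked, and less of the posterior Hoxa and Hoxc genes of tenocytes. A gene counted as higher or lower in a pair of classes where it differed at least 2-fold with its 95% interval on 1 side of 1, among genes with at least 50 summed UMIs. In the neurectomy library 11 of 25 tested Hox genes were higher in blood endothelial cells than in tenocytes (background 17.1% of all genes tested) and 9 were lower (8.28%). In the sham library 12 of 27 were higher (19.1%) and 11 were lower (8.56%). Their median log2 ratio was 0.27 and -0.10, beside 0.29 and 0.33 over all genes tested, with members on both sides. Of the 25 genes tested in both libraries 11 were higher in both, 8 were lower in both and 0 were called in opposite directions. The same overlap was not counted over all genes, so it does not set Hox genes apart from other genes.

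The Hoxb genes of groups 3 to 9, which pattern the trunk, gave the clearest contrast. Hoxb4 stood at 23.6 and 28.3 CPM in blood endothelial cells and 0.239 and 0.156 CPM in tenocytes (5 and 7 UMIs), with ratios of 98.8 (95% interval 40.6 to 312) and 182 (95% interval 85.2 to 463). Hoxb6 stood at 37.8 and 34.0 against 0.477 and 0.133 CPM, with ratios of 79.3 (95% interval 41.7 to 169) and 254 (95% interval 114 to 707). Hoxb9, a posterior member of the cluster, stood at 28.8 and 20.5 against 0.191 and 0.378 CPM, with ratios of 151 (95% interval 57.1 to 565) and 54.2 (95% interval 31.7 to 97.8). The other 3 called in both libraries were Hoxb3 (26.8 and 32.9 against 0.286 and 0.245 CPM), Hoxb7 (27.1 and 20.8 against 0.0477 and 0.222) and Hoxb8 (14.6 and 17.5 against 0.0477 and 0.156). Hoxb9 set blood apart from lymphatic endothelium, where it stood at 0.514 and 1.67 CPM, whereas Hoxb6 was present there at 18.3 and 21.9. Among tendon classes of at least 100 barcodes, blood endothelial cells were highest for Hoxb4, Hoxb6, Hoxb8 and Hoxb9 in both libraries. Their interval lay above that of the next class each time. Sham Schwann cells, with 89 barcodes and so outside that ranking, carried Hoxb9 at 32 CPM.

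Central and anterior Hoxa and Hoxd genes were also higher in blood endothelial cells. Hoxa3 stood at 26.2 and 26.7 CPM in blood endothelial cells and 1.86 and 1.05 in tenocytes, with ratios of 14.1 (95% interval 9.56 to 21.0) and 25.5 (95% interval 17.9 to 36.9). Hoxa5 stood at 17.5 and 19.4 against 0.477 and 0.289, and Hoxa7 at 33.2 and 33.2 against 1.81 and 2.31. Hoxd3 (10.8 and 10.2 against 2.67 and 1.85) and Hoxd4 (12.8 and 11.1 against 2.82 and 1.33) share 62.3% and 52.3% of their exonic bases with other genes of the same strand in GENCODE, each with the other, so their levels are uncertain. The genes lower in blood endothelial cells in both libraries were Hoxa10, Hoxa11, Hoxc4, Hoxc5, Hoxc8, Hoxc9, Hoxc10 and Hoxd11. Hoxa11 had ratios of 0.283 (95% interval 0.163 to 0.460) and 0.147 (95% interval 0.0839 to 0.240), and Hoxc8 of 0.224 (95% interval 0.101 to 0.432) and 0.204 (95% interval 0.0972 to 0.377). The annotated starts of the 11 higher genes (7 entries) held 3 to 28 CG dinucleotides and those of the 8 lower genes (6 entries) 2 to 20, ranges that overlapped.

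**Figure D3:**
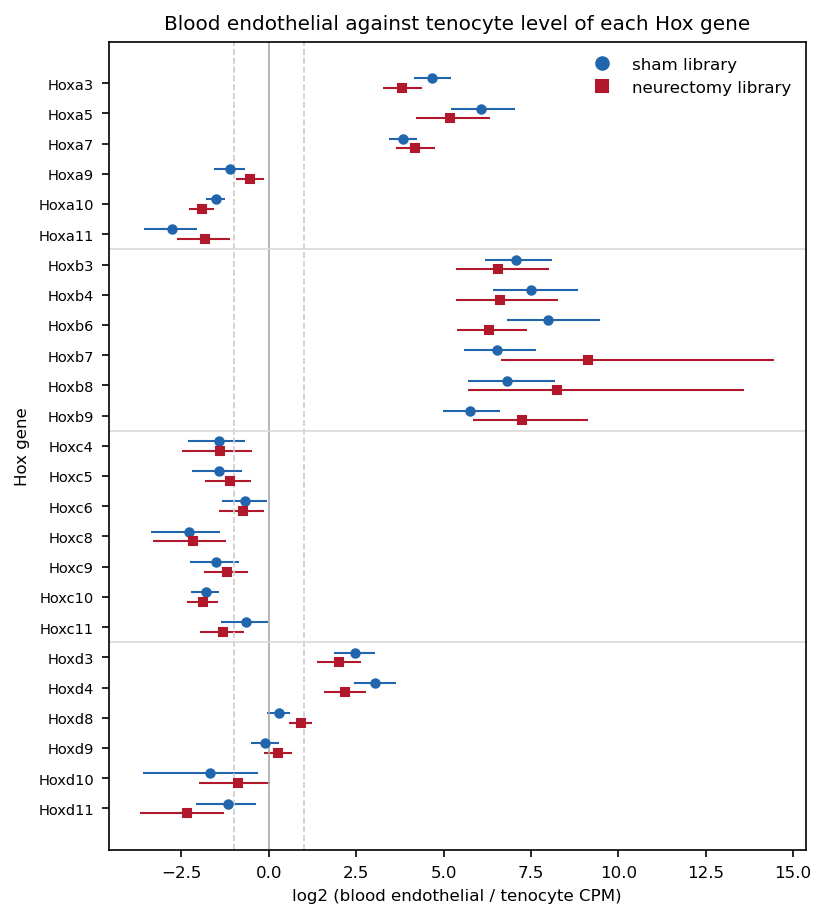
Log2 ratio of blood endothelial cells to tenocytes for the 25 Hox genes tested in both tendon libraries (rows), with exact 95% intervals. Circles are the sham and squares the neurectomy library, and dashed lines mark 2-fold in each direction: 11 genes lie to the right of the right line and 8 to the left of the left line in both libraries.

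Tenocyte RNA moved with this contrast. The 8 tenocyte markers summed to 22549 and 22679.8 CPM in tenocytes, 3159.8 and 4071 CPM in blood endothelial cells and 1306 and 1198 CPM in macrophages, with 0 of 8 markers at 0 in any of them. In the 166 and 127 blood endothelial barcodes with no UMI of these markers, posterior genes held 14.5% (10.3% to 19.6%) and 15.0% (11.0% to 19.8%) of the Hox UMIs. In the 1327 and 1195 barcodes with such a UMI they held 31.7% and 30.2%. The Hoxb share was 45.2% and 56.4% without and 40.8% and 38.5% with such a UMI. Over the barcodes without one, 4 of 18 tested genes (neurectomy: Hoxa3, Hoxa7, Hoxd3, Hoxd4) and 3 of 19 (sham: Hoxa3, Hoxa7, Hoxd4) were higher than in tenocytes and 5 and 6 were lower. No background over all genes was counted for these barcodes, so the counts cannot be read as particular to Hox genes. No Hoxb gene then had the 50 UMIs required. The part of tenocyte RNA in the smaller ratios was not tested further.

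Blood-derived cells, summed over their classes, carried fewer Hox transcripts than resident cells in all 3 libraries. The 39 genes together in all blood-derived barcodes stood at 45.7 (39.9 to 52.1) and 40.9 CPM (37.0 to 45.1) in the neurectomy and sham libraries, against 332 and 323 in all resident barcodes. In the DRG library the values were 51.1 (44.3 to 58.6) and 529 CPM. T and NK cells of the tendon had 1 Hox UMI over 33 barcodes and 7 over 49 barcodes. Mast cells had 1 Hox UMI over 18 barcodes in the neurectomy and 9 over 10 in the sham library, the latter a level of 135 CPM (61.7 to 256), which was the highest value of the blood-derived classes there and came from Hoxa9 and Hoxa10. B cells of the sham library stood at 67.7 CPM (29.2 to 133) over 18 barcodes. In the DRG library T and NK cells stood at 68.7 CPM and neutrophils at 61.4 CPM. Tendon leukocytes that passed no finer gate stood at 84.6 (62.8 to 112) and 123 (102 to 146), and their Scx, a tenocyte marker, was at 311 and 676 CPM, against 193 and 205 in macrophages. Barcodes rich in haemoglobin RNA (265, 703 and 83), which were kept out of the blood-derived sum, stood at 234 and 316 CPM in the tendon libraries and 36.6 in the DRG library. Their Scx was at 659 and 1818 CPM in the tendon libraries and 0 in the DRG library, and its part in that Hox level was not tested.

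Gene by gene, 27 of 28 tested Hox genes were higher in resident than in blood-derived cells of the neurectomy library (background 22.1%), 28 of 29 in the sham library (21.7%) and 25 of 32 in the DRG library (30.8%), and 0 were lower in any of them (backgrounds 14.8%, 19% and 17.8%). The median log2 ratio was 2.89, 3.09 and 2.85, beside 0.08, -0.07 and 0.60 over all genes tested. Hoxa10 stood at 71.0 against 7.58 CPM in the neurectomy library, 74.7 against 10.4 in the sham library and 54.2 against 2.01 in the DRG library, with ratios of 9.36 (6.78 to 13.3), 7.21 (5.93 to 8.86) and 27.0 (13.7 to 62.5). Hoxd9 had ratios of 9.71 (5.08 to 21.3), 16.0 (9.13 to 31.0) and 18.4 (7.19 to 67.6). The single exception in both tendon libraries was Hoxb4, a central gene known from blood-forming stem cells, with 3.42 against 1.84 and 2.39 against 3.56 CPM, ratios of 1.85 (0.949 to 4.14) and 0.671 (0.464 to 0.994). At a minimum of 5000 UMIs per barcode 1 Hox gene was lower in resident cells of the sham library. In the DRG library Hoxb4 was higher in resident cells, at 25.6 against 12.1 CPM, a ratio of 2.12 (1.60 to 2.88). Among the 7 DRG genes not called, Hoxa2, Hoxa4, Hoxa6, Hoxa11, Hoxc5 and Hoxc11 each had at most 4 UMIs in blood-derived cells.

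Against macrophages alone, 24 of 28 tested Hox genes were higher in resident cells of the neurectomy library (background 22.9%), 28 of 29 in the sham library (23%) and 24 of 32 in the DRG library (30.8%). The same limit of the count minimum applies, and 3, 2 and 12 of the tested genes had 0 UMIs in 1 of the groups. Macrophage barcodes also held RNA of tenocyte markers. Their level of the 8 tenocyte markers was 4.16% to 8.38% of the tenocyte level in the neurectomy and 4.19% to 6.37% in the sham library (medians 5.92% and 5.22%). For the Hox genes with enough tenocyte UMIs the median was 11.4% over 16 genes and 7.12% over 18 genes. The lower bound exceeded the highest marker for Hoxa9 (16.9%, 9.79% to 27.4%), Hoxc9 (20.4%) and Hoxc11 (24.6%) in the neurectomy library and for Hoxa7 (26.8%) and Hoxa10 (8.74%) in the sham library, with no gene in both. Hoxb4, in contrast, stood higher in macrophages than in tenocytes, at 1.76 (7 UMIs) against 0.239 CPM and 3.11 (25 UMIs) against 0.156 CPM. Hoxb3 had higher values there too, at 0.753 (3 UMIs) against 0.286 CPM and 1.24 (10 UMIs) against 0.245 CPM. Tenocytes nearly lacked both genes, whereas blood endothelial cells carried Hoxb4 at 23.6 and 28.3 CPM and Hoxb3 at 26.8 and 32.9 CPM. The posterior share of all blood-derived cells was 65.9% and 65.8% in the tendon libraries and 22.2% in the DRG library, beside 65.4%, 68.8% and 44.0% in the resident cells. The part of free RNA in the Hox level of blood-derived barcodes was not tested beyond these values.

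Few Hox genes differed at least 2-fold between the neurectomy and sham libraries. This contrast asks what the loss of sural innervation changes in the immobilized tendon. Whatever the fold, the tenocyte interval lay above 1 for 6 of 19 tested Hox genes and below 1 for 4. That count was not taken over all genes. In tenocytes 1 of 19 tested Hox genes was at least 2-fold higher in the neurectomy library (background 3.92%) and 1 was lower (1.19%), with a median log2 ratio of -0.03, beside 0.09 over all genes tested. Hoxd4 had 59 and 60 UMIs, 2.82 and 1.33 CPM, a ratio of 2.11 (1.45 to 3.07). Hoxa13 had 22 and 101 UMIs, 1.05 and 2.25 CPM, a ratio of 0.467 (0.281 to 0.747). Hoxd4 by class stood at 2.82 and 1.33 in tenocytes, 1.68 and 0.874 in Pi16 fibroblasts, 2.22 and 0.989 in other fibroblasts, 2.42 and 2.96 in synovial lining cells, 12.8 and 11.1 in blood endothelial cells, 18.8 and 16.2 in lymphatic endothelial cells, 1.70 and 3.45 in mural cells, 0 and 5.12 in Schwann cells, 0 and 0 in muscle satellite cells and 0 and 0.373 in macrophages, and the Hoxa13 levels by class are given above. Both calls rest on low levels: Hoxd4 fell under 2-fold at 5000 UMIs per barcode (log2 0.77), and Hoxa13 did so without the barcodes shared between libraries (log2 -0.89). Hoxc11, at 17.4 and 8.88 CPM, had a ratio of 1.96 (1.69 to 2.26), just inside 2-fold, and was called with a stricter gate and in barcodes with Xist and no Y-linked UMI. Of the genes with most UMIs, Hoxa10 had a ratio of 0.900 (0.849 to 0.954), Hoxc10 of 0.982 (0.911 to 1.06) and Hoxa9 of 0.969 (0.873 to 1.07). Hoxa11, at 0.596 (0.530 to 0.670), was lower in the neurectomy library but under 2-fold.

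The other 7 classes with 100 barcodes or more on both sides were compared too, and 0 Hox genes were called. The numbers tested were 18 in blood endothelial cells (background 1.9% called in either direction), 16 in lymphatic endothelial cells (2.26%), 13 in Pi16 fibroblasts (2.2%), 13 in other fibroblasts (4.29%), 3 in mural cells (6.02%), 2 in synovial lining cells (3.27%) and 2 in macrophages (2.91%). Hoxd9 in other fibroblasts came nearest, at 7.28 and 14.1 CPM, a ratio of 0.515 (0.355 to 0.738), and was called with background subtracted, without shared barcodes and in barcodes with Xist. Tenocyte markers of the same barcodes were lower too: the 8 markers, none of them at 0, summed to 3778 CPM in the neurectomy and 7166 in the sham library, with Scx at 218 and 598 and Tnmd at 113 and 281 CPM. Hoxd9 stood at 16.4 and 16.8 in tenocytes, and the part of the tenocyte markers in its shift was not tested. With 1 library each, the operation cannot be told apart from the animals, their sex and the library.

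In the ganglia, mural and blood endothelial cells and fibroblasts had the highest summed Hox levels, at 1056 (1012 to 1100.1), 993 (966 to 1019.9) and 802 CPM (783 to 821). Neurons stood at 535 (531 to 538), satellite glia, which wrap the neuron bodies, at 447 (438 to 457), non-myelinating Schwann cells at 275 and myelinating Schwann cells at 163 CPM. The intervals of mural and blood endothelial cells overlapped, and those of the other classes were apart. Macrophages stood at 43.4 CPM.

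The posterior share was 49.4% in neurons, 40.3% in fibroblasts, 34.9% in mural cells, 24.7% in blood endothelial cells, 24.6% in myelinating Schwann cells, 12.9% in satellite glia and 11.4% in non-myelinating Schwann cells. Neurons and their satellite glia share the ganglion and arise from the same neural crest, and they used different clusters. Hoxb held 53.8% of the Hox UMIs of satellite glia and 18.5% of those of neurons, and Hoxd 2.71% and 29.8%. In fibroblasts Hoxc held 36.4%, against 1.24% in blood endothelial cells, where Hoxb held 52.1% and Hoxd 33.2%.

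Member by member, the ganglion levels in CPM began with the Hoxa cluster. The anterior genes Hoxa2 and Hoxa3 are known from the hindbrain and neck. Hoxa2 stood at 0.269 in neurons, 1.29 in satellite glia, 1.24 in myelinating Schwann cells, 0 in non-myelinating Schwann cells, 2.80 in fibroblasts, 2.69 in blood endothelial cells, 2.34 in mural cells and 0 in macrophages. Hoxa3 stood at 5.18 in neurons, 17.5 in satellite glia, 8.97 in myelinating Schwann cells, 18.8 in non-myelinating Schwann cells, 35.9 in fibroblasts, 22.8 in blood endothelial cells, 55.3 in mural cells and 3.53 in macrophages. Hoxa3 was higher in every other resident class than in neurons and highest in mural cells. Hoxa4 stood at 2.91 in neurons, 0.931 in satellite glia, 0.729 in myelinating Schwann cells, 0 in non-myelinating Schwann cells, 1.87 in fibroblasts, 3.26 in blood endothelial cells, 1.41 in mural cells and 1.01 in macrophages. Hoxa6 stood at 0.494 in neurons, 1.40 in satellite glia, 0.0729 in myelinating Schwann cells, 0 in non-myelinating Schwann cells, 2.10 in fibroblasts, 1.34 in blood endothelial cells, 4.22 in mural cells and 0 in macrophages. Hoxa7 stood at 37.2 in neurons, 58.1 in satellite glia, 13.1 in myelinating Schwann cells, 25.0 in non-myelinating Schwann cells, 12.2 in fibroblasts, 23.8 in blood endothelial cells, 18.8 in mural cells and 4.04 in macrophages. Hoxa7, a central gene, was highest in satellite glia. For the posterior genes, Hoxa9 stood at 67.0 in neurons, 24.7 in satellite glia, 13.6 in myelinating Schwann cells, 4.17 in non-myelinating Schwann cells, 39.3 in fibroblasts, 25.9 in blood endothelial cells, 101 in mural cells and 2.02 in macrophages. Hoxa10 stood at 65.1 in neurons, 6.52 in satellite glia, 10.8 in myelinating Schwann cells, 2.08 in non-myelinating Schwann cells, 61.9 in fibroblasts, 8.26 in blood endothelial cells, 48.3 in mural cells and 2.02 in macrophages. Hoxa11 stood at 0.0688 in neurons, 0 in satellite glia, 0 in myelinating Schwann cells, 0 in non-myelinating Schwann cells, 12.6 in fibroblasts, 0.384 in blood endothelial cells, 32.4 in mural cells and 0 in macrophages. Mural cells were highest for Hoxa9 and Hoxa11, and neurons, with high Hoxa9 and Hoxa10, were near 0 for Hoxa11.

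In the Hoxb cluster, Hoxb2 stood at 14.0 in neurons, 61.5 in satellite glia, 20.6 in myelinating Schwann cells, 12.5 in non-myelinating Schwann cells, 41.2 in fibroblasts, 24.0 in blood endothelial cells, 122 in mural cells and 1.51 in macrophages. Hoxb3 stood at 13.9 in neurons, 27.3 in satellite glia, 10.6 in myelinating Schwann cells, 10.4 in non-myelinating Schwann cells, 49.7 in fibroblasts, 69.5 in blood endothelial cells, 76.0 in mural cells and 2.52 in macrophages. Hoxb4 stood at 14.6 in neurons, 98.6 in satellite glia, 7.51 in myelinating Schwann cells, 52.1 in non-myelinating Schwann cells, 33.2 in fibroblasts, 114 in blood endothelial cells, 58.1 in mural cells and 12.1 in macrophages. Mural cells had the highest Hoxb2 and Hoxb3 and blood endothelial cells the highest Hoxb4. Hoxb5 stood at 39.2 in neurons, 3.10 in satellite glia, 1.46 in myelinating Schwann cells, 2.08 in non-myelinating Schwann cells, 12.2 in fibroblasts, 15.4 in blood endothelial cells, 22.5 in mural cells and 1.01 in macrophages, highest in neurons and so unlike its neighbour Hoxb4. Hoxb6 stood at 5.72 in neurons, 15.4 in satellite glia, 2.63 in myelinating Schwann cells, 16.7 in non-myelinating Schwann cells, 38.5 in fibroblasts, 53.6 in blood endothelial cells, 37.5 in mural cells and 1.01 in macrophages. Hoxb7 stood at 5.82 in neurons, 17.9 in satellite glia, 0.584 in myelinating Schwann cells, 10.4 in non-myelinating Schwann cells, 12.1 in fibroblasts, 46.5 in blood endothelial cells, 5.63 in mural cells and 1.01 in macrophages. Both were highest in blood endothelial cells. Hoxb8 stood at 2.47 in neurons, 14.2 in satellite glia, 0.802 in myelinating Schwann cells, 16.7 in non-myelinating Schwann cells, 18.1 in fibroblasts, 62.2 in blood endothelial cells, 34.2 in mural cells and 1.01 in macrophages. Hoxb9 stood at 3.05 in neurons, 2.84 in satellite glia, 0.584 in myelinating Schwann cells, 0 in non-myelinating Schwann cells, 23.7 in fibroblasts, 132 in blood endothelial cells, 49.2 in mural cells and 0 in macrophages. Blood endothelial cells were highest for these 2 genes as well, and Hoxb9 had 0 UMIs in macrophages and non-myelinating Schwann cells.

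Of the Hoxc cluster, Hoxc5 stood at 0.600 in neurons, 2.43 in satellite glia, 0.875 in myelinating Schwann cells, 4.17 in non-myelinating Schwann cells, 4.20 in fibroblasts, 0.192 in blood endothelial cells, 2.34 in mural cells and 0 in macrophages. Hoxc6 stood at 18.9 in neurons, 29.9 in satellite glia, 20.8 in myelinating Schwann cells, 29.2 in non-myelinating Schwann cells, 81.5 in fibroblasts, 2.11 in blood endothelial cells, 87.7 in mural cells and 1.51 in macrophages. Hoxc10 stood at 28.0 in neurons, 8.84 in satellite glia, 5.32 in myelinating Schwann cells, 6.25 in non-myelinating Schwann cells, 109 in fibroblasts, 5.76 in blood endothelial cells, 87.7 in mural cells and 1.01 in macrophages. Fibroblasts or mural cells had the highest value of each, and blood endothelial cells had low values of all 3. Of the Hoxd cluster, Hoxd1 stood at 14.2 in neurons, 0.207 in satellite glia, 0.365 in myelinating Schwann cells, 0 in non-myelinating Schwann cells, 0.350 in fibroblasts, 0.576 in blood endothelial cells, 0.938 in mural cells and 0 in macrophages. Hoxd3 stood at 24.5 in neurons, 1.14 in satellite glia, 1.82 in myelinating Schwann cells, 8.34 in non-myelinating Schwann cells, 10.7 in fibroblasts, 147 in blood endothelial cells, 11.3 in mural cells and 0 in macrophages. Hoxd8 stood at 35.4 in neurons, 8.48 in satellite glia, 17.2 in myelinating Schwann cells, 18.8 in non-myelinating Schwann cells, 21.1 in fibroblasts, 87.4 in blood endothelial cells, 10.8 in mural cells and 2.52 in macrophages. Hoxd1 was under 1 CPM in each of these classes but neurons, while Hoxd3 and Hoxd8 were highest in blood endothelial cells. Hoxd9 stood at 21.2 in neurons, 1.71 in satellite glia, 2.63 in myelinating Schwann cells, 4.17 in non-myelinating Schwann cells, 18.0 in fibroblasts, 48.0 in blood endothelial cells, 9.85 in mural cells and 0 in macrophages. Hoxd10 stood at 29.0 in neurons, 0.207 in satellite glia, 0.656 in myelinating Schwann cells, 2.08 in non-myelinating Schwann cells, 16.4 in fibroblasts, 24.6 in blood endothelial cells, 8.91 in mural cells and 0 in macrophages. Hoxd11 stood at 32.1 in neurons, 0.207 in satellite glia, 0.656 in myelinating Schwann cells, 0 in non-myelinating Schwann cells, 13.4 in fibroblasts, 0.384 in blood endothelial cells, 6.57 in mural cells and 0.505 in macrophages. Hoxd11 was highest in neurons, with its interval above the next class, and the satellite glia that surround them were near 0 for Hoxd10 and Hoxd11.

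Blood endothelial cells of the ganglia, set against fibroblasts of the same library, had 8 of 25 tested Hox genes higher (background 13.8%) and 8 lower (27.2%), so the lower share was near the background. The higher genes were Hoxb4, Hoxb7, Hoxb8, Hoxb9, Hoxd3, Hoxd4, Hoxd8 and Hoxd9, and the lower ones Hoxa10, Hoxa11, Hoxc4, Hoxc6, Hoxc8, Hoxc9, Hoxc10 and Hoxd11. Hoxb9 stood at 132 against 23.7 CPM, a ratio of 5.55 (95% interval 4.74 to 6.53), and Hoxc9 at 0.576 against 26.2, a ratio of 0.0219 (95% interval 0.00449 to 0.0650). Both tissues gave Hoxb4, Hoxb7, Hoxb8, Hoxb9, Hoxd3 and Hoxd4 higher in blood endothelium than in the compared class of the same library. Both gave Hoxa10, Hoxa11, Hoxc4, Hoxc8, Hoxc9, Hoxc10 and Hoxd11 lower there. The compared class was tenocytes in the tendon and fibroblasts in the ganglia, so the contrasts are not alike. This overlap was not counted over all genes, so it does not set Hox genes apart from other genes. The median log2 ratio was 0.48, beside -0.28 over all genes tested.

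Neurons were next compared with all other resident cells of the ganglia. Of 32 tested Hox genes 8 were higher in neurons (background 28.8%) and 12 were lower (29.9%), shares near the background, with a median log2 ratio of -0.19, beside 0.04 over all genes tested. All 9 genes of the stress and dissociation list were lower in neurons, with a median log2 ratio of -3.05, and their summed level was 1073 against 9962 CPM. The part of this difference in the Hox ratios was not tested. The higher genes of the Hoxd cluster were Hoxd1, Hoxd9, Hoxd10 and Hoxd11, and no background was counted by cluster. Hoxd1 and Hoxd11 were highest in neurons with intervals apart from the next class. Hoxd9 stood higher in blood endothelial cells, at 48.0 CPM, and the Hoxd10 interval of neurons overlapped that of blood endothelial cells (24.6 CPM). Hoxd1, known for its part in the wiring of pain-sensing neurons, stood at 14.2 against 0.344 CPM, a ratio of 41.2 (25.7 to 70.8). Hoxd10 stood at 29.0 against 6.11 CPM, a ratio of 4.74 (4.22 to 5.34), and Hoxd11 at 32.1 against 2.91 CPM, a ratio of 11.0 (9.35 to 13.1). These 2 posterior genes mark lumbosacral levels of the cord and ganglia. Hoxd9 stood at 21.2 against 10.0 CPM, a ratio of 2.11 (1.92 to 2.32), and did not hold at 5% mitochondrial UMIs (log2 0.09). Hoxb5 stood at 39.2 against 6.35 CPM, a ratio of 6.18 (5.51 to 6.94), and was the single Hoxb gene that was higher. In the Hoxa cluster, Hoxa4 stood at 2.91 against 1.29 CPM, a ratio of 2.25 (1.73 to 2.97), Hoxa9 at 67.0 against 27.4 CPM, a ratio of 2.45 (2.31 to 2.59), and Hoxa10 at 65.1 against 19.3 CPM, a ratio of 3.38 (3.16 to 3.61).

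The 12 lower genes held all other tested Hoxb genes and the anterior Hoxa genes. Hoxb2, a hindbrain gene, stood at 14.0 against 44.8 CPM, Hoxb3 at 13.9 against 32.9 CPM, Hoxb4 at 14.6 against 61.4 CPM with a ratio of 0.237 (0.225 to 0.250) and Hoxb6 at 5.72 against 20.8 CPM. Hoxb7 stood at 5.82 against 14.5 CPM, Hoxb8 at 2.47 against 17.1 CPM with a ratio of 0.145 (0.128 to 0.163) and Hoxb9 at 3.05 against 21.4 CPM with a ratio of 0.143 (0.128 to 0.159). Hoxb6 and Hoxb7 were under 2-fold when each barcode had equal weight (log2 -0.85 and -0.53). The other resident cells are a pool of unlike classes. By the levels above, Hoxb9 was lower in satellite glia and in myelinating and non-myelinating Schwann cells than in neurons. Hoxb3, Hoxb4, Hoxb6, Hoxb7 and Hoxb8 were lower in myelinating Schwann cells than in neurons. All of these genes were higher in blood endothelial cells and fibroblasts than in neurons. Hoxb5 thus lay between neighbours that were lower in neurons than in the pool. Hoxa2 stood at 0.269 against 1.72 CPM, Hoxa3 at 5.18 against 20.5 CPM, Hoxa6 at 0.494 against 1.25 CPM and Hoxc5 at 0.600 against 2.08 CPM. Hoxa11, at 0.0688 against 3.62 CPM, a ratio of 0.0190 (0.00932 to 0.0348), was lower in neurons although Hoxa9 and Hoxa10 beside it were higher. Neuron markers summed to 11616 CPM in neurons and 299 CPM in the other resident cells, with 0 of 11 at 0 in either, and the satellite glia markers to 324 and 6837 CPM. The part of such carried-over RNA in the smaller ratios was not tested.

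**Figure D4:**
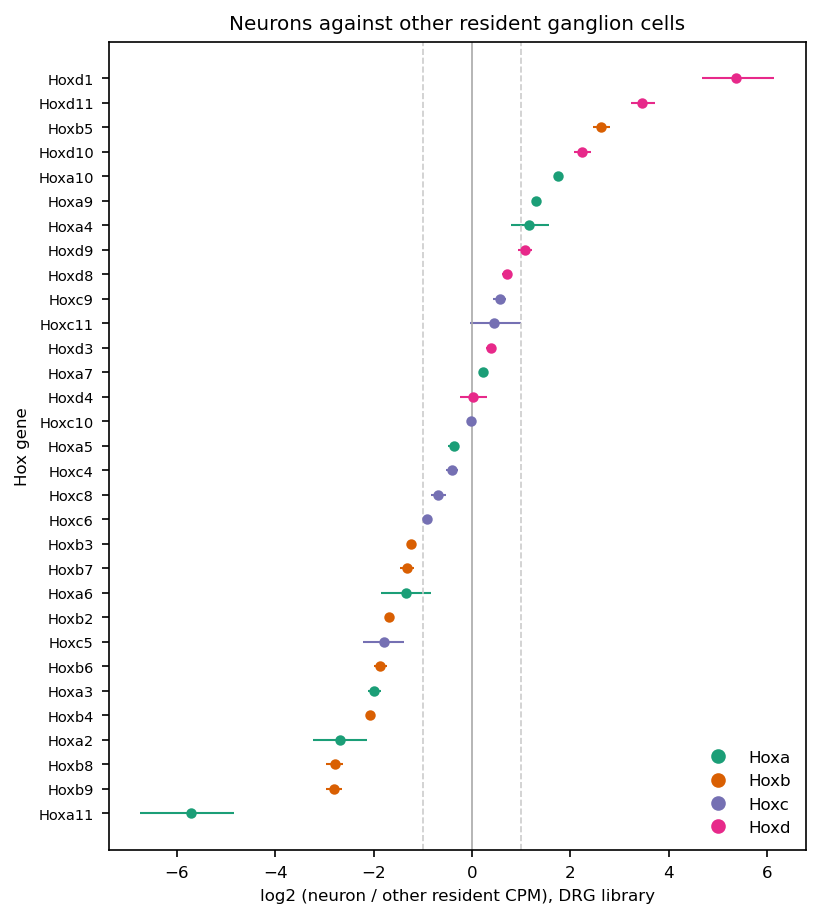
Log2 ratio of DRG neurons to all other resident DRG cells for 31 of the 32 tested Hox genes, sorted and coloured by cluster, with exact 95% intervals and dashed lines at 2-fold. Hoxd1 and Hoxd11 stand at the top with ratios of 41.2 and 11.0, and Hoxb genes other than Hoxb5 lie below 1.

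Sensory neuron subtypes of the same pooled ganglia differed in their Hox levels, as they did in most genes, with the background given below. The gates put 620 neurons in the Mrgprd subtype (non-peptidergic nociceptors), 324 in the Th subtype (C-fibre touch receptors), 369 in the peptidergic, 173 in the Nppb and 123 in the Mrgpra3 subtype (itch neurons), 171 in the Trpm8 subtype (cold receptors) and 101 in the large Nefh subtype (myelinated touch and position receptors), and left 1609 unassigned. In that order the summed Hox level was 466, 603, 588, 254, 264, 679 and 568 CPM. Nppb and Mrgpra3 neurons were lowest, with overlapping intervals (245 to 264 and 253 to 275). The Hoxb share was 25.3, 23.9, 13.5, 7.51, 2.52, 13.2 and 28.8%, and the Hoxd share 20.3, 20.3, 41.5, 40.0, 41.5, 20.7 and 21.0%. Peptidergic, Nppb and Mrgpra3 neurons thus had the high Hoxd shares, and the posterior share, at 47.3, 44.8, 47.5, 42.7, 50.5, 54.0 and 58.2%, varied less.

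Of 30 Hox genes with at least 50 neuron UMIs, 29 had the interval of the highest subtype above that of the lowest (background 86% of all genes), and 12 had it above that of the second (background 35%), shares not far from the background. The highest level was up to 320 times the lowest, with a median of 4.63, over the 25 genes with more than 3 UMIs in the lowest subtype. In CPM, Hoxb9 stood at 0.170 in Mrgprd, 0.307 in Th, 0.383 in peptidergic, 0.398 in Nppb, 0.474 in Mrgpra3, 4.46 in Trpm8 neurons and 54.4 in large Nefh neurons. Hoxb8 stood at 0.616 in Mrgprd, 0.798 in Th, 1.28 in peptidergic, 1.39 in Nppb, 0.118 in Mrgpra3, 6.01 in Trpm8 neurons and 37.3 in large Nefh neurons. Both were highest in large Nefh neurons, with Trpm8 neurons next, and Hoxb9 stood at 88.5 CPM there with 1 more marker in the gate. Blood endothelial cells carried Hoxb9 at 132 CPM with Pecam1 at 1338 CPM, and Pecam1 was at 4.43 CPM in large Nefh neurons. Hoxb5 stood at 56.3 in Mrgprd, 82.0 in Th, 24.7 in peptidergic, 1.69 in Nppb, 0.948 in Mrgpra3, 15.3 in Trpm8 neurons and 15.8 in large Nefh neurons, and was highest in Th neurons, the touch receptors of the skin's hairs.

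The Hoxd cluster was led by peptidergic neurons, which carry pain and heat signals. Hoxd1 stood at 1.27 in Mrgprd, 3.56 in Th, 36.7 in peptidergic, 8.06 in Nppb, 4.50 in Mrgpra3, 2.06 in Trpm8 neurons and 22.8 in large Nefh neurons. Hoxd3 stood at 11.8 in Mrgprd, 16.8 in Th, 42.7 in peptidergic, 19.7 in Nppb, 27.5 in Mrgpra3, 22.0 in Trpm8 neurons and 10.4 in large Nefh neurons. Hoxd8, Hoxd9 and Hoxd11 were also highest there, at 53.1, 35.6 and 37.7 CPM, with their intervals above the second subtype. The unassigned neurons, left out of all subtype rankings, stood at 48.6 CPM for Hoxd8 and 39 for Hoxd11. Trpm8 neurons had the highest Hoxa9, at 105, the highest Hoxc10, at 74.0 against 46.8 in the second subtype, and the highest Hoxc11, at 4.46. Hoxb3 was highest in Mrgprd neurons, at 22.1 CPM against 12.6. Mrgpra3 neurons had the lowest level of 12 genes, among them Hoxb2 (0.948) and Hoxb5 (0.948). Ganglia of several levels were pooled, so ganglion level and subtype cannot be told apart here.

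**Figure D5:**
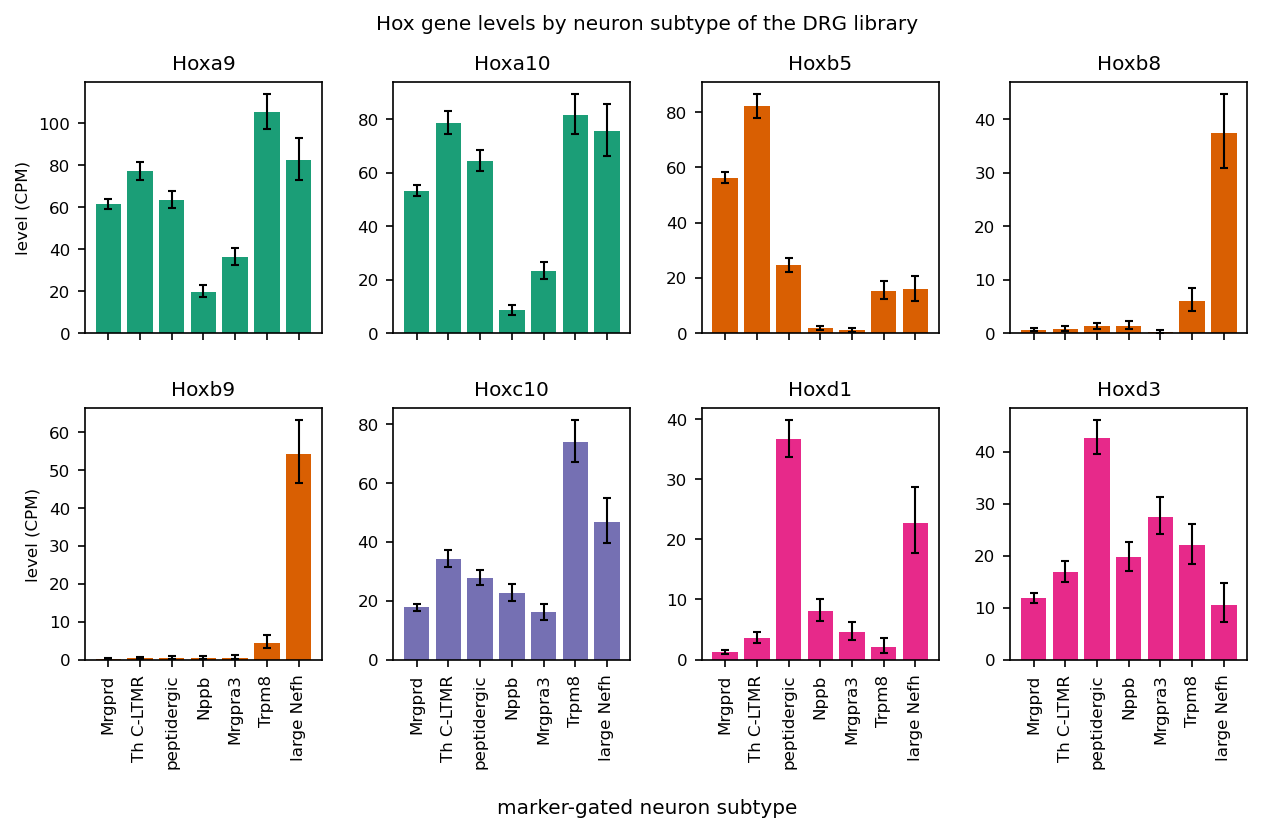
Levels (CPM, bars from 0, exact 95% Poisson intervals) of Hoxa9, Hoxa10, Hoxb5, Hoxb8, Hoxb9, Hoxc10, Hoxd1 and Hoxd3 in the 7 gated neuron subtypes of the DRG library. Hoxb8 and Hoxb9 stand out in large Nefh neurons, Hoxd1 and Hoxd3 in peptidergic neurons and Hoxb5 in Th neurons.

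Classes present in both tissues are given side by side without a call, since the tendon and DRG tables list different numbers of features and differ in gene models. In the order neurectomy tendon, sham tendon and DRG, blood endothelial cells had posterior shares of 28.9%, 27.5% and 24.7%, and mural cells 50.9%, 53.8% and 34.9%. Hoxa11 stood at 10.2, 6.91 and 32.4 CPM in mural cells. Hoxa13 stood at 5.11, 3.45 and 0, and Hoxc11 at 6.81, 8.63 and 0.469. In blood endothelial cells Hoxb9 stood at 28.8, 20.5 and 132 CPM, and Hoxd3 at 10.8, 10.2 and 147. Other fibroblasts of the tendon and fibroblasts of the ganglia had Hoxb shares of 0.575%, 0.911% and 28.5%. Hoxb4 in these cells stood at 0, 0.141 and 33.2 CPM. Hoxb UMIs were few in tendon fibroblasts of both libraries.

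Per barcode, Hox transcripts were sparse. With each barcode thinned to 1000 UMIs, leaving out shallower barcodes, 26.4% (24.7% to 28.2%) of tenocytes in the neurectomy and 26.3% (25.0% to 27.6%) in the sham library had at least 1 Hox UMI. The shares were 33.6% (31.0% to 36.4%) and 29.2% (26.6% to 32.0%) in blood endothelial cells and 6.30% (4.52% to 8.51%) and 5.66% (4.12% to 7.55%) in macrophages. How much of the macrophage share comes from free RNA was not tested. In the DRG library they were 41.7% (40.0% to 43.4%) in neurons, 35.3% (33.7% to 37.0%) in satellite glia, 15.1% (14.1% to 16.1%) in myelinating Schwann cells, 49.8% (47.6% to 52.1%) in fibroblasts, 60.2% (56.2% to 64.1%) in blood endothelial cells, 61.7% (57.8% to 65.4%) in mural cells and 1.43% (0.575% to 2.92%) in macrophages. Unthinned, the shares were 57.9% and 56.0% in tenocytes, 16.1% and 15.6% in tendon macrophages and 92.0% in neurons, at median depths of 2445, 1862, 2859, 8858 and 47262 UMIs. Barcodes left out as shallower numbered 343 and 957 tenocytes, 57 and 39 macrophages and 210 neurons. At 5000 UMIs 74.7% and 75.6% of tenocytes and 90.7% of neurons had a Hox UMI.

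The Hox cofactors and the other positional genes were read from fixed lists. Of the TALE cofactors, 2 of 9 were higher in resident than in blood-derived cells of the neurectomy library, 4 of 9 in the sham and 4 of 9 in the DRG library, beside a background of 22.1%, 21.7% and 30.8% of all genes tested, and Pbx3 was lower in all 3. Pbx3, a direct partner of Hox proteins, stood at 96.3 against 211 and 76.6 against 184 CPM in the tendon libraries. Meis2 was at 260.5 and 233 CPM in lymphatic and 26.8 and 23.2 in blood endothelial cells. Of the limb identity genes 14 of 14, 13 of 15 and 7 of 10 were higher in resident cells, against the same background. Pitx1, which gives the hind limb its identity, stood at 48.9 and 54.0 CPM in tenocytes and 0 in DRG fibroblasts, and Tbx4, its target in the hind limb, at 10.4, 17.1 and 0. Tbx5, the forelimb counterpart, stood at 0 and 0.245 in tenocytes and 3.12 and 9.24 in Pi16 fibroblasts. Of the Polycomb and trithorax genes, which keep Hox clusters silent or active, 0 of 16 were higher and 2 lower (Jarid2 and Kdm6b) in resident cells of the neurectomy library, and the counts in the sham library were 0 and 2 of 16. In the DRG library 1 of 16 was higher (Bmi1) and 5 were lower (Ezh2, Eed, Jarid2, Rnf2 and Kdm6b). The background of lower calls was 14.8%, 19% and 17.8%.

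Non-coding RNAs of the clusters were read the same way: 4 of 6, 5 of 6 and 5 of 8 tested were higher in resident cells, beside 22.1%, 21.7% and 30.8% of all genes tested. Hotairm1, a non-coding RNA of the Hoxa cluster, stood at 27.9 and 30.5 CPM in blood endothelial cells and 0.859 and 1.65 in tenocytes. Hoxa11os, antisense to Hoxa11, stood at 11.6 and 18.8 in tenocytes and 4.07 and 6.47 in blood endothelial cells, and 0.0813 in DRG neurons. Hotair, of the Hoxc cluster, stood at 1.62 and 1.02 in tenocytes and 1.83 in neurons. In GENCODE 10 of the 39 Hox genes have an antisense gene over their exons, and whether counting used strand is not stated in the sources used here, so reads of such pairs may not be separated.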

How the data were processed

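Droplet RNA libraries of sham tendon, neurectomy tendon and ganglia, 1 each, were analysed from UMI count matrices that the authors deposited (per the file headers, Cell Ranger 8.0.1). The submitters' processing notes list mm10 and GRCm39 and give neither a role. Barcodes under 500 genes or over 15% mitochondrial UMIs were dropped and the rest gated by marker genes (usually 3 per class, each at 2 times its mean share or more; 5 for tenocytes, neurons and myelinating Schwann cells). Hox genes entered no gate. The gate thresholds were set after marker and Hox levels had been seen, and no doublet caller was run. The Hox genes, gene lists and tests were chosen with earlier results of these data known. UMIs were summed per class and scaled to 1000000 (CPM). Cells are not replicates, so no p-value was computed: intervals are exact (Poisson, Clopper-Pearson or conditional, 95%) and cover counting error only. A call needed 2-fold and an interval on 1 side of 1 among genes with at least 50 summed UMIs, and a class at 0 was set to 3 counts. Named with values in every class were the 10 Hox genes with most resident UMIs per library and those called between tendon libraries or in neurons. Code was written in Python 3.11.15 with numpy 2.4.6, scipy 1.17.1 and pandas 2.3.3 and checked on simulated data. Alternatives changed depth, mitochondrial limit, gates, scaling, background, count minimum, sex-linked RNA and thinning. Values of 2 genes are not reported here.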

Additional observations from a re-analysis of the deposited data

How the results depend on the processing

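No paired analysis was possible because each group is 1 library and nothing pairs barcodes across libraries. A reversal of direction could be seen only for the 20 genes called in neurons and the 2 called between tendon libraries. None of these genes reversed, and 10 of their comparisons were weaker. Levels, shares and counts were recorded only as the same or moved, so a reversal was not defined for them. Of the comparisons of main results, 199 were the same and 59 moved. Alternatives without the barcodes shared between libraries, the endothelial barcodes without tenocyte RNA, and all those of the endothelial contrast and of the neuron subtypes were chosen after seeing the data. Calls under equal weight per barcode or after subtraction use the changed fold with the interval of the summed counts, and the cause of each shift below was not tested. Depth limits the smaller classes: mural and synovial cells and macrophages had 2 or 3 genes tested between tendon libraries.

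At 5000 UMIs per barcode or more, the summed Hox level moved to 470.8 CPM in sham blood endothelial cells and 23.76 in sham macrophages, the posterior share of the former to 19.44%, Hoxb9 in large Nefh neurons to 45.66 CPM, the genes higher in neurectomy endothelium than in tenocytes to 6, the tenocyte calls between tendon libraries to 1, the genes lower in resident sham cells to 1, and the shares of barcodes with a Hox UMI to 34.62% (endothelial), 2.449% (macrophage) and 28.91% (tenocyte). At 5% mitochondrial UMIs, neurons stood at 481.6 CPM with a posterior share of 48.89% and 39.62% of barcodes with a Hox UMI, sham macrophages at 26.87 CPM and 3.738%, Hoxb5 in Th neurons at 64.48 CPM and Hoxb9 in large Nefh neurons at 74.06 CPM. With 1 more marker per gate, sham endothelium stood at 445.5 CPM and 23.79% posterior, sham macrophages at 23.02 CPM and 3.63% of barcodes, sham tenocytes at 27.6% of barcodes, Hoxb5 in Th neurons at 88.27 CPM and Hoxb9 in large Nefh neurons at 88.5 CPM, and the calls between tendon libraries were 4 in tenocytes (Hoxa3, Hoxa13, Hoxc11, Hoxd4), 1 in Pi16 fibroblasts (Hoxc5) and 1 in other fibroblasts (Hoxc9). With equal weight per barcode, neurons stood at 548.7 CPM and 50.39% posterior, sham endothelium at 369.2 CPM and 34.25%, and sham macrophages at 58.05 CPM, with calls of 1 in Pi16 fibroblasts (Hoxc8), lymphatic endothelium (Hoxa3) and synovial lining (Hoxa10) and 2 in other fibroblasts (Hoxc11, Hoxd9). With the blood-derived level subtracted, neurons stood at 483.6 CPM and 52.22% posterior, sham endothelium at 373.1 CPM and 23.27%, and sham tenocytes at 282.6 CPM, with 1 call in other fibroblasts (Hoxd9). With mixed barcodes kept, 7 genes were lower in sham endothelium than in tenocytes. Without tenocyte RNA in endothelial barcodes, 4 (neurectomy) and 3 (sham) were higher and 5 and 6 lower, with no background over all genes counted. A minimum of 20 UMIs gave 3 calls between tendon libraries in macrophages (Hoxa9, Hoxa11, Hoxc11) and 1 each in lymphatic (Hoxc11), mural (Hoxa3), synovial (Hoxc6) and other fibroblast cells (Hoxc13). Barcodes with Xist and no Y-linked UMI gave 1 call in Pi16 (Hoxc13) and 1 in other fibroblasts (Hoxd9), and leaving out shared barcodes 1 in other fibroblasts (Hoxd9) and 1 in synovial lining (Hoxa10). Thinned to 2000 UMIs, 63.64% of neurons, 53.65% of sham endothelial cells and 45.98% of sham tenocytes had a Hox UMI. Over all alternatives 23 to 28, 26 to 28 and 22 to 26 genes were higher in resident than in blood-derived cells of the neurectomy, sham and DRG libraries.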
